A study of Triticum aestivum with 6 samples.

Results

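The 244 probes described here were chosen by their measured values, out of 37826 probes of a wheat 38k oligo DNA microarray, because their signal in crown tissue was higher in both of a pair of dwarf synthetic wheat lines than in a line of normal growth, and by about the same amount. A synthetic wheat line is made by crossing a tetraploid wheat with the wild grass Aegilops tauschii, so that its hexaploid genome joins the A and B genomes of the one with the D genome of the other. The crt/KU-2025 line came from T. carthlicum and the Ae. tauschii accession KU2025, and the labels call it grass-clump dwarf. The Ldn/KU-2025 line came from the durum cultivar Langdon and the same KU2025 accession, and it is also labelled grass-clump dwarf. The WT line came from Langdon and another accession, KU2059, and is labelled wild type. Each line was measured on 2 arrays, said to be independent experiments, all from plants held at 24°C for 8 weeks in days of 18 h of light and 6 h of darkness, and the tissue was the crown, the shoot base that holds the shoot apical meristem. Both dwarf lines carry the KU2025 D genome and the WT line does not, so the Ae. tauschii parent and the dwarf growth cannot be told apart. Each line is a single cross, and the number of plants behind an array is not given in the sources used here.

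A grass-clump dwarf plant is short and forms many tillers, a growth form known from crosses between tetraploid wheat and some accessions of Ae. tauschii. The crown carries the apex from which leaves and tillers arise, together with young vascular tissue. In cells that stiffen, such as those of the xylem, cellulose synthase complexes at the plasma membrane follow cortical microtubules and lay down cellulose, xylan is added from the Golgi, and lignin built from phenylalanine fills the wall. Sucrose synthase splits sucrose into fructose and UDP-glucose, and UDP-glucose is the substrate of cellulose synthase.

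The selection asked that the lower Ldn/KU-2025 array be at least 2 times the higher WT array, which 1092 probes met, or 2.89% of all probes. It then asked for a signal of at least 100 on both Ldn/KU-2025 arrays, which left 798 probes, or 2.11%. The signal is the scanner's processed intensity after scaling of each array, in arbitrary units. Last, both crt/KU-2025 arrays had to lie between 0.5 times the lower and 2 times the higher Ldn/KU-2025 array. Of the 798 probes, 294 went above that window, 181 went below it, 79 were below it on one crt/KU-2025 array and above it on the other, and 244 stayed inside and are the members. Since all 6 arrays entered the choice, the values below are a description and no test was run on them.

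**Figure D1:**
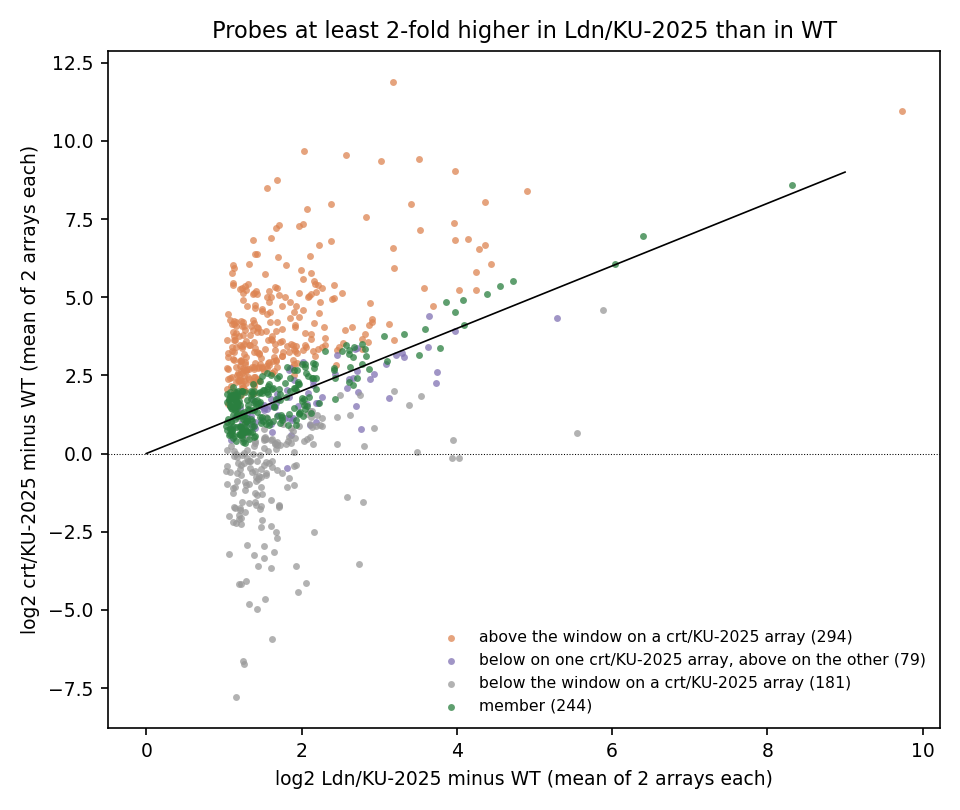
Each point is 1 of the 798 probes that met the 2-fold step and the floor of 100 in Ldn/KU-2025; axes give the log2 difference of crt/KU-2025 (vertical) and of Ldn/KU-2025 (horizontal) from WT, each a difference of means over 2 arrays, and the solid line marks equal differences. The 244 members (green) follow the line because the selection put them there, whereas the 294 probes above the window and the 181 below it spread widely on either side.

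The members were not all alike in size. Over the 244, the log2 difference of crt/KU-2025 from WT had a median of 1.67 and ran from 0.33 to 8.59, while the median over all probes was 0.10. For Ldn/KU-2025 minus WT the members' median was 1.42 with a range of 1.03 to 8.31, against a median of -0.02 over all probes. Both crt/KU-2025 arrays were at least 2 times the higher WT array for 173 members, and 17.9% of all probes met that mark. Of the 798 probes that met the 2-fold step and the floor, 464 (58.1%) met it. The window ties crt/KU-2025 to Ldn/KU-2025, so the share among the members is set in part by the selection. For the other 71 members at least 1 crt/KU-2025 array was under that mark, though above both WT arrays, which the selection itself ensures. Thus "alike" holds within a factor of 2 of the Ldn/KU-2025 arrays, and a member can be well under 2-fold in crt/KU-2025.

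Between the dwarf lines the median log2 difference, crt/KU-2025 minus Ldn/KU-2025, was 0.16 with quartiles of -0.37 and 0.55, beside 0.11 over all probes. Both crt/KU-2025 arrays lay above both Ldn/KU-2025 arrays for 119 members and below both for 80, and the arrays of the dwarf lines overlapped for 45. These values depend on the scaling: with each array scaled to its 75th percentile the median was 0.041, beside -0.009 over all probes, and the counts were 102 above, 90 below and 52 overlapping. The same counts were not made over all probes, so this order of the dwarf lines is not read as a trait of the members. The crt/KU-2025 arrays also differed more from each other. Their members' values were 0.185 apart at the median on the log2 scale, against 0.0651 for the Ldn/KU-2025 arrays and 0.0792 for the WT arrays. The crt/KU-2025 arrays shared a slide of their own and the other 4 arrays shared another, so slide and line cannot be told apart for any value that sets crt/KU-2025 against the rest. No member spot was saturated or carried an outlier flag. With 1 crt/KU-2025 array in place of both, which only relaxes the selection and so keeps the 244 by construction, 307 probes (array 2 kept) or 319 probes (array 1 kept) met it.

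Most members lay close to the 2-fold step. In 157 the lower Ldn/KU-2025 array was 2 to 3 times the higher WT array, in 56 it was 3 to 5 times, in 20 it was 5 to 10 times, and in 11 it was 10 times or more. Median crt/KU-2025 minus WT followed these brackets at 1.41, 2.07, 3.11 and 5.12 on the log2 scale. The last bracket rests partly on WT signals near background. Its median is that of MUGEST2003_23lib_Contig16003_1265, at 5.7 on both WT arrays. The lower bounds explained below put that probe at 7.15-fold over WT for crt/KU-2025 and 4.3-fold for Ldn/KU-2025. For MUGEST2003_23lib_Contig2574_1330 and wheat0130Contig13190 the Ldn/KU-2025 bounds were 5.2-fold and 5.07-fold. A ratio of 10 was thus not measured for these probes. A gene description was at hand for few of the members with smaller ratios. Of the 244 members 114 are on the published lists of changed probes that could be read, 89 of them on the list of probes up in Ldn/KU-2025, and 130 are on none and have no description here. The list of probes up in Ldn/KU-2025 holds 362 probes, so that 24.6% of it are members, while 28.5% went above the window only and 17.4% below it only, and the counts per gene list below are to be read beside these shares. All but 7 of the 87 members at 3 times or more are listed, but only 34 of the 157 below 3 times. Among the 114, 19 carry no description, 16 give only a rice locus and 13 only an organism or a hypothetical protein. The groups below therefore speak for the larger changes, and the published lists were themselves drawn from these arrays.

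The group with most members was that of cell wall polysaccharides and proteins. It held 9 members, 6 of them described as cellulose synthases, the enzymes that spin cellulose chains at the plasma membrane, and 3 from the DUF231 and trichome birefringence-like family, whose studied members in Arabidopsis acetylate wall polysaccharides. As for every member, all dwarf arrays were above both WT arrays, with crt/KU-2025 between 1.90 and 11.3 times WT and Ldn/KU-2025 between 3.31 and 6.86 times WT.

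By the lower Ldn/KU-2025 array over the higher WT array, the widest gap in this group belonged to whh20i02, a cellulose synthase family member. It read 2826.2 and 3636.3 on the crt/KU-2025 arrays, 2957.2 and 3138.0 on the Ldn/KU-2025 arrays, and 454.0 and 436.7 on the WT arrays. The dwarf lines overlapped there, and both were about 7 times WT, with log2 differences of 2.85 ± 0.18 for crt/KU-2025 and 2.77 ± 0.05 for Ldn/KU-2025 (SE, n = 2 arrays each). A further 3 cellulose synthase probes were higher still in crt/KU-2025. wheat0130Contig1302, described as cellulose synthase A catalytic subunit 9, read 1749.7 and 2211.3 on the crt/KU-2025 arrays, 1162.6 and 1234.3 on the Ldn/KU-2025 arrays and 179.7 and 169.7 on the WT arrays. whkp20e04_129, with the same description, read 1479.2 and 1739.2 in crt/KU-2025, 927.3 and 975.6 on the Ldn/KU-2025 arrays and 186.1 and 148.0 in WT. For whr9b20, described as cellulose synthase 2, the arrays gave 717.6 and 1042.3 in crt/KU-2025, against 497.6 and 551.3 in Ldn/KU-2025 and 88.2 and 76.0 in WT. In these 3 probes both crt/KU-2025 arrays stood above both Ldn/KU-2025 arrays, and crt/KU-2025 was 9.67 to 11.3 times WT.

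The bright cellulose synthase probes showed the opposite order between the dwarf lines. wheat0130Contig12115, of the cellulose synthase family, read 18430.8 and 19650.1 on the crt/KU-2025 arrays, 33317.1 and 33700.8 on the Ldn/KU-2025 arrays and 8228.9 and 7239.4 on the WT arrays. wheat0130Contig11723, a further subunit 9 probe, read 13898.0 and 13800.3 in crt/KU-2025, 26534.7 and 28931.3 on the Ldn/KU-2025 arrays and 7662.4 and 6937.0 in WT. Both crt/KU-2025 arrays lay between the other lines in each, and wheat0130Contig11723, at 1.90 times WT, sat just inside the lower edge of the window. The fourth listed subunit 9 probe, wheat0130Contig11052, was no member. It read 7283.0 and 7506.8 in crt/KU-2025, against 22398.5 and 23104.6 in Ldn/KU-2025 and 5727.0 and 5420.8 in WT, which is below the window. Thus probes that share this description ran from well above Ldn/KU-2025 to far below it in crt/KU-2025.

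The remaining 3 members of the wall group are given to complete it. whh2i03, trichome birefringence-like 28, read 357.8 and 401.7 on the crt/KU-2025 arrays, 491.1 and 465.6 on the Ldn/KU-2025 arrays and 113.0 and 125.8 on the WT arrays. wheat0130Contig6255, with a DUF231 domain, read 3701.1 and 3585.9 in crt/KU-2025, 5382.3 and 5394.1 on the Ldn/KU-2025 arrays and 1530.4 and 1493.6 in WT. wheat0130Contig6644, trichome birefringence-like 33, read 510.4 and 719.7 in crt/KU-2025, against 593.9 and 642.3 in Ldn/KU-2025 and 195.2 and 177.9 in WT. The first and second were lower on both crt/KU-2025 arrays than on either Ldn/KU-2025 array, and in the last the dwarf lines overlapped. Beside these 9, the same list held 5 probes up in Ldn/KU-2025 that lay below the window in crt/KU-2025, 5 that went above it and 1 under the signal floor.

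Lignin and phenylpropanoid enzymes gave 6 members. wheat0130Contig15604, phenylalanine ammonia-lyase, which takes phenylalanine into the phenylpropanoid pathway, was the brightest member of all. It read 602742.4 and 681824.2 on the crt/KU-2025 arrays, 355160.4 and 350132.0 on the Ldn/KU-2025 arrays and 141485.9 and 130709.4 on the WT arrays, so that the lines were fully apart at 4.71 times WT in crt/KU-2025 and 2.59 times WT in Ldn/KU-2025. Upstream of it, wheat0130Contig5954, a shikimate kinase of the path that makes phenylalanine, read 12322.4 and 13482.3 in crt/KU-2025, 6365.5 and 6834.3 on the Ldn/KU-2025 arrays and 1457.4 and 1222.4 in WT. That was the largest difference of the group, with log2 values of 3.27 ± 0.14 for crt/KU-2025 and 2.31 ± 0.14 for Ldn/KU-2025 (SE, n = 2 arrays each). The remaining enzymes of the group with a named role are described as O-methyltransferases, not all of them with a named substrate.

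Caffeic acid O-methyltransferase, which acts on precursors of lignin units, was the description of a pair of members. whr5e03 read 5899.9 and 6295.2 in crt/KU-2025, against 3197.8 and 3041.0 in Ldn/KU-2025 and 882.0 and 888.8 in WT. wheat0130Contig7441 read 7605.4 and 5979.1 on the crt/KU-2025 arrays, 8344.5 and 7994.6 on the Ldn/KU-2025 arrays and 2046.0 and 1776.2 on the WT arrays. Of the dwarf lines, crt/KU-2025 was the higher in the first and the lower in the second, without overlap in either. The third listed probe with this description, wheat0130Contig4207, was left out because crt/KU-2025 stood far above the window, at 3345.3 and 4547.2, against 356.7 and 395.2 in Ldn/KU-2025 and 113.7 and 116.6 in WT. wheat0130Contig10137, described only as an O-methyltransferase, read 23982.2 and 19619.1 in crt/KU-2025, 25369.6 and 25808.2 on the Ldn/KU-2025 arrays and 6759.3 and 5969.0 in WT. The last member, wheat0130Contig2410, is placed here by a GO term for lignin alone and read 13759.6 and 13120.4 in crt/KU-2025, against 8537.3 and 9144.7 in Ldn/KU-2025 and 3458.2 and 3308.5 in WT. Of 13 probes on this list that were up in Ldn/KU-2025, 4 were members, 7 went above the window, 1 below and 1 was under the floor, beside 24.6% members and 28.5% above the window among all 362.

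Microtubule-linked proteins gave 3 members of the 5 listed probes that were up in Ldn/KU-2025, beside 89 of all 362, though 5 probes are few. rwhh4j07, described as RIC10-like with a CRIB domain, the part that binds small GTPases of the ROP family, read 1161.9 and 1085.3 on the crt/KU-2025 arrays, 666.6 and 667.3 on the Ldn/KU-2025 arrays and 155.7 and 146.6 on the WT arrays. The description of rwhh4j07 does not name microtubules, so its place in this list is an assumption. wheat0130Contig7169, WVD2-like 1, from a family that bundles microtubules in Arabidopsis, read 1103.6 and 1643.4 in crt/KU-2025, 948.1 and 926.6 on the Ldn/KU-2025 arrays and 213.6 and 237.2 in WT. In both, crt/KU-2025 was the higher of the dwarf lines. rwhh1l07, microtubule-associated protein 70-4, read 1759.9 and 1983.4 in crt/KU-2025, against 2891.4 and 2764.6 in Ldn/KU-2025 and 931.7 and 893.0 in WT, and here the order of the dwarf lines was turned.

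**Figure D2:**
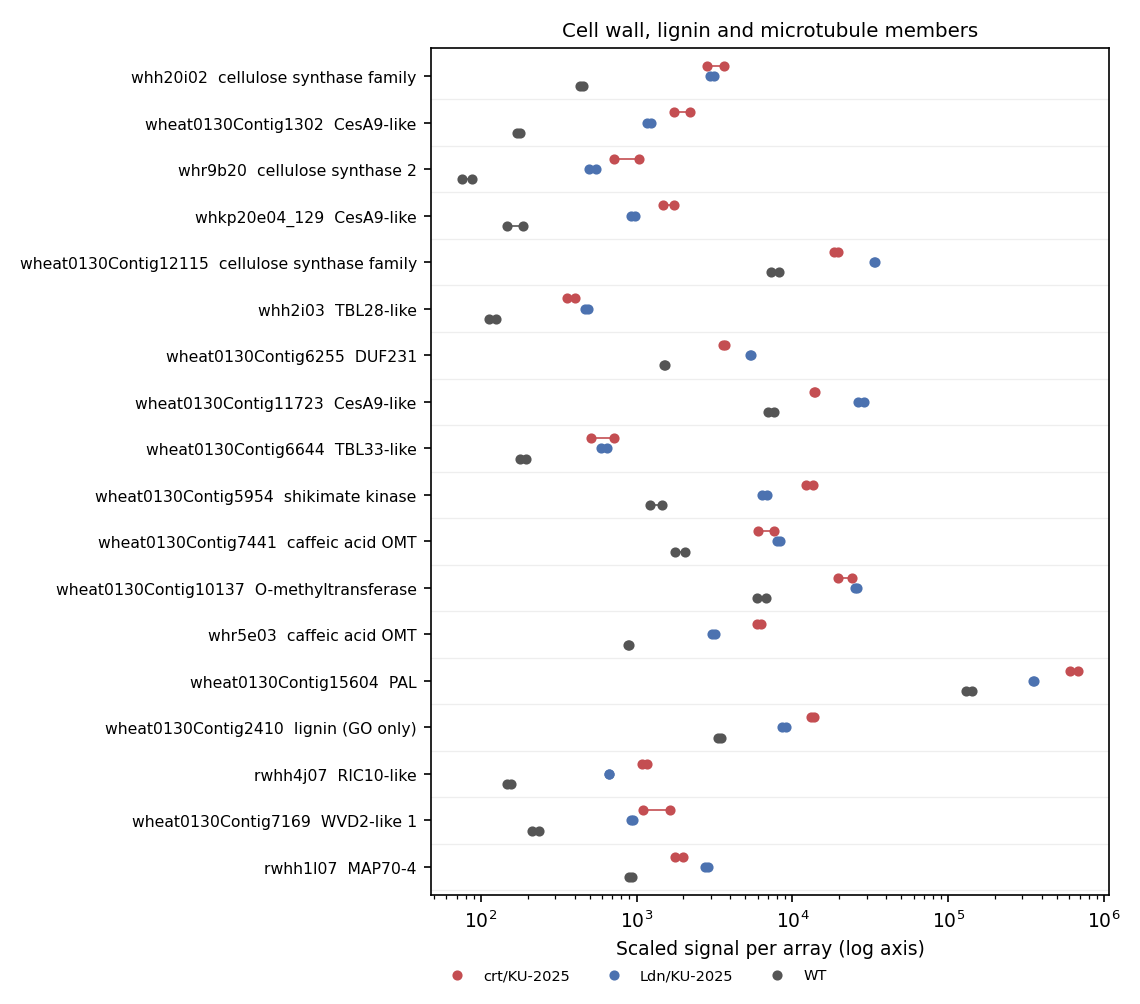
Scaled signal (log axis) of the 18 cell wall, lignin and microtubule members on each array, with 2 dots joined by a line for each line of wheat: crt/KU-2025 (red, top), Ldn/KU-2025 (blue, middle) and WT (grey, bottom). All dwarf arrays lie right of both WT arrays in every row, whereas crt/KU-2025 lies right of Ldn/KU-2025 in some rows, such as wheat0130Contig1302, and left of it in others, such as wheat0130Contig12115.

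Sucrose synthase 1, wheat0130Contig10164, was among the 3 members with the smallest difference between the dwarf lines. It read 10609.1 and 12634.4 on the crt/KU-2025 arrays, 11709.6 and 11427.3 on the Ldn/KU-2025 arrays and 3304.4 and 3331.5 on the WT arrays, which is 3.49 times WT in each dwarf line. The other two closest were MUGEST2003_23lib_Contig10167_17, described only as partial from rye, and wheat0130Contig13262, which is not listed. MUGEST2003_23lib_Contig10167_17 read 390.0 and 376.7 in crt/KU-2025, 372.6 and 399.8 on the Ldn/KU-2025 arrays and 72 and 70.6 in WT. wheat0130Contig13262 read 13444.0 and 15498.7 in crt/KU-2025, against 14349.4 and 14560.2 in Ldn/KU-2025 and 5742.0 and 5290.8 in WT. Sucrose synthase 1 was the single member of its list of sugar enzymes, whose other 6 probes up in Ldn/KU-2025 went above the window. The 2 of these with the largest gap to WT were described as fructose-bisphosphate aldolases, wheat0130Contig4178 and whsh_allContig1181. wheat0130Contig4178 read 252.7 and 1466.4 on the crt/KU-2025 arrays, 301.4 and 294.9 on the Ldn/KU-2025 arrays and 37.4 and 31.2 on the WT arrays. For whsh_allContig1181 the arrays gave 112.6 and 806.4 in crt/KU-2025, 114.4 and 116.7 on the Ldn/KU-2025 arrays and 19.2 and 17.6 in WT, so that in both it was crt/KU-2025 array 2 that left the window.

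The transcription factor list gave 5 members, all among its 11 probes up in Ldn/KU-2025, beside 24.6% of all 362, though 11 probes are few. The rest of the 11 went above the window (3), went below it (2) or were under the floor (1). FAR1-RELATED SEQUENCE 5 (wheat0130Contig5471), of a family that arose from a transposase and works in light signalling in Arabidopsis, read 581.9 and 620.6 in crt/KU-2025, against 768.0 and 824.0 in Ldn/KU-2025 and 60.4 and 55.5 in WT. This was 10.4 times WT in crt/KU-2025 and 13.7 times WT in Ldn/KU-2025. The AT hook probe MUGEST2003_23lib_Contig2574_1330 was near background in WT and is given with such members below. Transcription factor MYB86 (wheat0130Contig1588) read 807.8 and 984.8 on the crt/KU-2025 arrays, 1410.3 and 1484.5 on the Ldn/KU-2025 arrays and 280.4 and 255.8 on the WT arrays. wheat0130Contig5167, described as a truncated CAULIFLOWER D-like factor, a name from the MADS-box family that acts in floral meristems, read 372.6 and 403.3 in crt/KU-2025, 613.9 and 576.8 on the Ldn/KU-2025 arrays and 132.0 and 122.3 in WT. In FAR1-RELATED SEQUENCE 5, MYB86 and the CAULIFLOWER D-like factor, crt/KU-2025 lay between WT and Ldn/KU-2025 with no overlap. The fifth, Myb-related 305 (rwhca6l20_454), had the other order, with 4790.8 and 5599.2 in crt/KU-2025, against 4086.3 and 4059.8 in Ldn/KU-2025 and 1268.4 and 1228.1 in WT.

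Receptor kinases and disease resistance proteins gave 5 members out of 59 listed probes, and the words of this list also take in other kinases. Of the 11 probes up in Ldn/KU-2025, 4 were members, beside 24.6% of all 362. A further 4 went above the window, 1 went below it and 2 were under the floor. A probe described as disease resistance RPP13 1 (MUGEST2003_23lib_Contig756_779) read 557.1 and 708.7 on the crt/KU-2025 arrays, 979.4 and 941.6 on the Ldn/KU-2025 arrays and 232.7 and 231.8 on the WT arrays. The stress kinase SAPK3 (wheat0130Contig6505), of a kinase family that answers to osmotic stress in rice, read 1079.9 and 1423.8 in crt/KU-2025, 1721.4 and 1923.1 on the Ldn/KU-2025 arrays and 468.5 and 403.2 in WT. PBS1, a kinase guarded by a resistance protein in Arabidopsis, was the description of MUGEST2003_23lib_Contig10619_676, which read 402.2 and 349.9 in crt/KU-2025, against 346.4 and 346.6 in Ldn/KU-2025 and 97.7 and 84.5 in WT. These differed in order, since crt/KU-2025 was the lower dwarf line for the first and second and the higher for PBS1. The dimmest of the group was the GSO1 receptor kinase probe whvs6h04_730, with 100.9 and 98.6 on the crt/KU-2025 arrays, 163.3 and 156.2 on the Ldn/KU-2025 arrays and 55.3 and 51.2 on the WT arrays. The fifth, wheat0130Contig9606, is described as a microtubule-associated kinase and stands in this list for the word kinase, with crt/KU-2025 at 3.84 and Ldn/KU-2025 at 2.81 times WT.

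Transporters gave 4 members, 2 of them among the 9 listed probes up in Ldn/KU-2025, a share near the 24.6% of all 362. Among these 9, 5 went above the window and 2 below it. rwhr13o09, of the NRT1/PTR family of nitrate and peptide carriers, read 1106.4 and 1069.8 in crt/KU-2025, 604.7 and 629.4 on the Ldn/KU-2025 arrays and 156.4 and 143.6 in WT. MUGEST2003_23lib_Contig3945_879, a MATE efflux carrier named ALF5, read 196.6 and 197.6 in crt/KU-2025, against 165.3 and 162.4 in Ldn/KU-2025 and 42.4 and 41.1 in WT. The aquaporin NIP2-1 probe rwhr21l22, whose rice namesake carries silicic acid, read 1492.6 and 1242.3 on the crt/KU-2025 arrays, 798.8 and 794.2 on the Ldn/KU-2025 arrays and 325.1 and 351.4 on the WT arrays. As in the remaining member, both crt/KU-2025 arrays were above both Ldn/KU-2025 arrays in these 3. That member, wheat0130Contig8136, described as pleiotropic drug resistance 4, a name of ATP-driven export pumps, was 3.95 times WT in crt/KU-2025 and 2.23 times WT in Ldn/KU-2025.

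The protease list gave 4 members, and the aspartic protease Asp1, wheat0130Contig6456, which the words of the list missed, is added here by its description. Of the 12 listed probes up in Ldn/KU-2025, 3 were members, a share near the 24.6% of all 362. Asp1 is not in that count. The vacuolar-processing enzyme whsh_allContig257, a protease that matures vacuolar proteins, read 4049.7 and 2792.1 in crt/KU-2025, 5307.0 and 5447.3 on the Ldn/KU-2025 arrays and 1414.2 and 1338.4 in WT. The nepenthesin-2 aspartic protease probe MUGEST2003_23lib_Contig17972_510 had an uneven pair of crt/KU-2025 arrays, 3101.1 and 1261.5, around 2130.8 and 2194.3 in Ldn/KU-2025, against 489.6 and 458.5 in WT. The mean crt/KU-2025 difference of that probe, 2.06 on the log2 scale with an SE of 0.65, therefore rests on arrays that disagree. A further pair, rwhr24h20 and rwhsl8p20, is serine carboxypeptidase-like. rwhsl8p20 lay near the signal floor, with 191.6 and 195.7 in crt/KU-2025, against 104.6 and 102.8 in Ldn/KU-2025 and 49.8 and 48.6 in WT. Asp1 read 694.5 and 756.1 on the crt/KU-2025 arrays, 458.5 and 473.0 on the Ldn/KU-2025 arrays and 229.2 and 214.2 on the WT arrays.

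Redox enzymes gave 3 members. Peroxidase 72 (rwhr17h18), of the secreted class that uses hydrogen peroxide in the wall, was the single member of 10 peroxidase probes up in Ldn/KU-2025, beside 24.6% of all such probes, and 6 of the others went above the window. It read 1201.1 and 1425.0 on the crt/KU-2025 arrays, 818.4 and 821.2 on the Ldn/KU-2025 arrays and 166.6 and 196.6 on the WT arrays. Of 9 glutathione transferases and other redox probes up in Ldn/KU-2025, 2 were members, a share near that of all. The glutathione transferase GSTU6 probe MUGEST2003_23lib_Contig5075_747 read 187.5 and 183.4 in crt/KU-2025, 292.9 and 326.9 on the Ldn/KU-2025 arrays and 92.7 and 94.1 in WT. IN2-1 (MUGEST2003_23lib_Contig19376_588), a glutathione transferase-like protein of maize known for its induction by herbicide safeners, read 345.1 and 303.9 in crt/KU-2025, against 167.9 and 181.7 in Ldn/KU-2025 and 31.9 and 27.0 in WT, where 1 of the 2 WT arrays was well above background. The order of the dwarf lines thus differed between this pair too.

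Cytokinin-O-glucosyltransferase 2 (MUGEST2003_23lib_Contig5402_324), an enzyme that conjugates cytokinins to a sugar, read 1345.2 and 1800.2 on the crt/KU-2025 arrays, 2170.0 and 2200.5 on the Ldn/KU-2025 arrays and 653.7 and 657.6 on the WT arrays. The cytokinin-O-glucosyltransferase 1 probe wheat0130Contig2583 was no member, as it went above the window. It read 1447.5 and 2008.6 on the crt/KU-2025 arrays, 168.5 and 154.9 on the Ldn/KU-2025 arrays and 13.8 and 7.7 on the WT arrays. Its crt/KU-2025 signal was 10.55 times that of Ldn/KU-2025, and neither WT array was well above background. Of the 7 hormone probes up in Ldn/KU-2025, 1 was a member, 3 went below the window, 2 above it and 1 was under the floor. The other hormone member, abscisic stress ripening (wheat0130Contig7078), was the second brightest member with 290482.3 and 299272.9 in crt/KU-2025, 194580.5 and 200060.1 on the Ldn/KU-2025 arrays and 94069.0 and 93195.7 in WT. The third brightest, wheat0130Contig3466, is not listed, and its dwarf arrays overlapped. It read 174827.4 and 196319.8 in crt/KU-2025, against 184863.7 and 198509.0 in Ldn/KU-2025 and 90040.1 and 90371.5 in WT. wheat0130Contig10535, another abscisic stress ripening probe, was below the window on 1 crt/KU-2025 array, with 2240.2 and 1246.4 on the crt/KU-2025 arrays, 2571.9 and 2615.5 on the Ldn/KU-2025 arrays and 472.8 and 448.9 on the WT arrays.

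**Figure D3:**
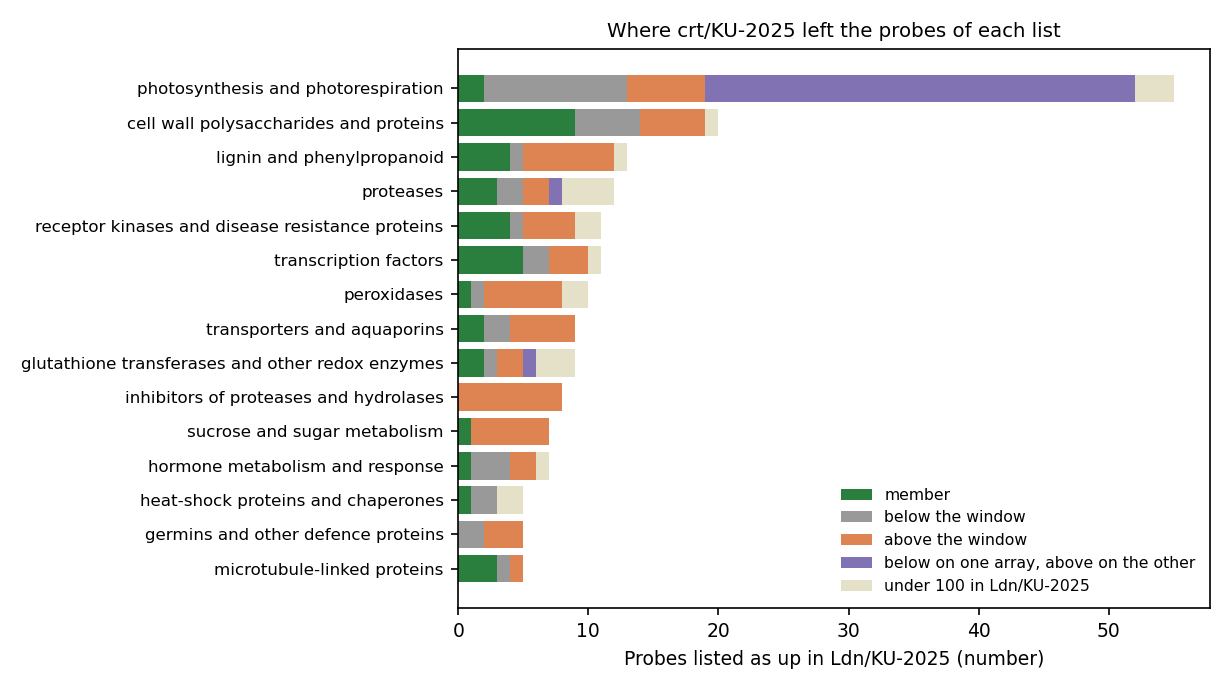
Number of probes of each gene list on the published list of probes up in Ldn/KU-2025 (horizontal axis), split by where the crt/KU-2025 arrays placed them; green are members. The wall list has 9 members of 20 such probes, the photosynthesis list 2 of 55, and the inhibitor list none of 8, all of which lie above the window, beside 89 members of all 362 probes.

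A pair of lists had no member. All 8 inhibitors of proteases and hydrolases that were up in Ldn/KU-2025 went above the window. For example, the alpha-amylase/trypsin inhibitor-like probe MUGEST2003_23lib_Contig3803_446 read 27125.8 and 48995.6 in crt/KU-2025, 277.8 and 307.5 on the Ldn/KU-2025 arrays and 54.6 and 44.2 in WT. Of 5 germins and other defence proteins, 3 went above and 2 below. The chitinase probe wheat0130Contig5942 read 18790.6 and 31127.0 in crt/KU-2025, against 969.2 and 855.1 in Ldn/KU-2025 and 121.9 and 134.3 in WT. The germin 5-1 probe wheat0130Contig12252 went the other way, with 678.5 and 491.4 on the crt/KU-2025 arrays, 3334.6 and 3533.1 on the Ldn/KU-2025 arrays and 527.9 and 459.9 on the WT arrays.

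Photosynthesis and photorespiration, taken here as a list of leaf genes in crown tissue, had the most probes up in Ldn/KU-2025 of the lists used, 55, of which 2 were members. The median signal of the 55 was 210.0 on crt/KU-2025 array 1 and 3850 on crt/KU-2025 array 2, against 1020 and 1090 on the Ldn/KU-2025 arrays and 239 and 234 on the WT arrays. In every one of the 53 that were no members, crt/KU-2025 array 2 read at least 7.11 times array 1, and as some array 1 signals were near background no upper end is given. The 2 members did not follow that split. rwhcs20f08_m_664, a chlorophyll a-b binding protein, which holds light-harvesting pigment, read 8396.1 and 8315.4 in crt/KU-2025, 4814.9 and 4770.1 on the Ldn/KU-2025 arrays and 163.9 and 200 in WT. That is 46.1 times WT in crt/KU-2025 and 26.5 times WT in Ldn/KU-2025, the largest folds among members measured above background on both WT arrays. wheat0130Contig7554, described as a mitochondrial-like alanine-glyoxylate aminotransferase, read 1002.2 and 818.3 in crt/KU-2025, against 652.9 and 605.7 in Ldn/KU-2025 and 84.2 and 94.0 in WT. The description of wheat0130Contig7554 names neither photosynthesis nor photorespiration, so its place in this list is an assumption. Across all members array 2 was 0.407 to 3.78 times array 1 in crt/KU-2025, and 1.04 times at the median, a range the window itself limits. No marker of the shoot apex could be checked, since only listed probes have a description. These 53 probes thus differed between the crt/KU-2025 arrays, whereas their difference between Ldn/KU-2025 and WT was set by the published list they were taken from. The part of leaf transcripts in the members' values was not tested. In bulk tissue, a different share of cells of a type and a different amount of RNA per cell cannot be told apart.

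**Figure D4:**
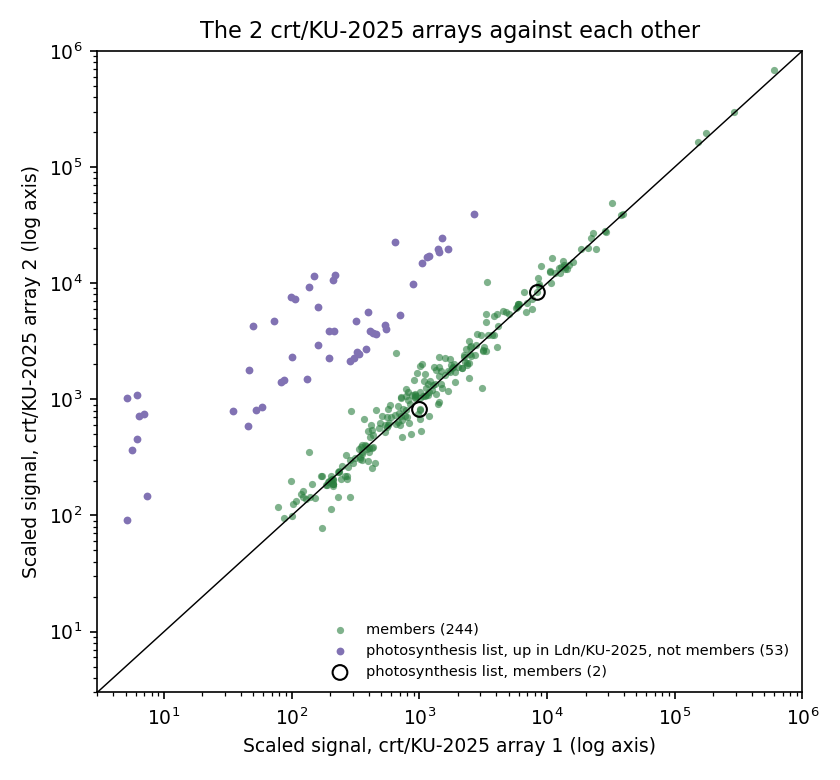
Scaled signal on crt/KU-2025 array 2 (vertical, log axis) against array 1 (horizontal, log axis) for the 244 members (green) and for the 53 photosynthesis probes up in Ldn/KU-2025 that are not members (purple); the line marks equal signal. The purple points all lie far above the line, and the 2 members placed on the photosynthesis list (circled) lie on the line among the other members.

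For 14 members neither WT array was well above background by the scanner's flag, so the fold against WT is only a lower bound. It is given as "at least", for which each WT signal was lifted, where it was lower, to that of the dimmest probe above background on the same array, which was 23.9 to 27.9 over the arrays. All 14 were well above background on every dwarf array, as were all other members. The largest bound was that of wheat0130Contig5054, described as urease accessory G, a protein that helps load nickel into urease. It read 3134.9 and 2591.9 on the crt/KU-2025 arrays, 2377.9 and 2337.5 on the Ldn/KU-2025 arrays and 5.6 and 9.8 on the WT arrays, which puts crt/KU-2025 at least 103-fold above WT, and Ldn/KU-2025 at least 85.3-fold. No array of the WT line came near the dwarf lines.

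wheat0130Contig3861, delta-1-pyrroline-5-carboxylate synthetase, the enzyme that opens proline synthesis from glutamate, read 1121.7 and 1097.4 in crt/KU-2025, 724.3 and 769.5 on the Ldn/KU-2025 arrays and 8.8 and 8.9 in WT. crt/KU-2025 was thus at least 40.1-fold above WT, and Ldn/KU-2025 at least 27.0-fold. MUGEST2003_23lib_Contig623_484, which has no description, read 411.7 and 476.3 in crt/KU-2025, against 431.2 and 445.4 in Ldn/KU-2025 and 6.6 and 6.8 in WT, with a bound of at least 16-fold for crt/KU-2025 and one of at least 15.9-fold for Ldn/KU-2025. Only these 3 had bounds of 10-fold or more in either line.

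The AT hook probe MUGEST2003_23lib_Contig2574_1330, named for a DNA-binding motif of chromatin proteins, read 249.8 and 264.1 on the crt/KU-2025 arrays, 150.3 and 137.6 on the Ldn/KU-2025 arrays and 8.3 and 8.7 on the WT arrays, with a bound of at least 9.29-fold for crt/KU-2025 and one of at least 5.2-fold for Ldn/KU-2025. MUGEST2003_23lib_Contig16003_1265, which is not listed, read 209.7 and 186.5 in crt/KU-2025, 102.1 and 138.6 on the Ldn/KU-2025 arrays and 5.7 and 5.7 in WT, and was also the member closest to the signal floor. The heat-shock protein probe wheat0130Contig8442 read 202.7 and 113.0 in crt/KU-2025, against 126.9 and 125.7 in Ldn/KU-2025 and 32.4 and 32.5 in WT. It was the single member of 5 heat-shock and chaperone probes up in Ldn/KU-2025, of which 2 went below the window and 2 were under the floor. Another probe with its description, wheat0130Contig9393, was under the floor at 88.9 and 96.2 in Ldn/KU-2025. It read 8.5 and 16.2 in crt/KU-2025 and 7.6 on both WT arrays, near background. Over the 14, the bounds ran from 4.04 to 103-fold in crt/KU-2025 and from 3.28 to 85.3-fold in Ldn/KU-2025. An array signal does not show whether a transcript is rare in WT or whether its copy matches the probe less well, and as the D genome donor differs between WT and both dwarf lines, these cannot be told apart.

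**Figure D5:**
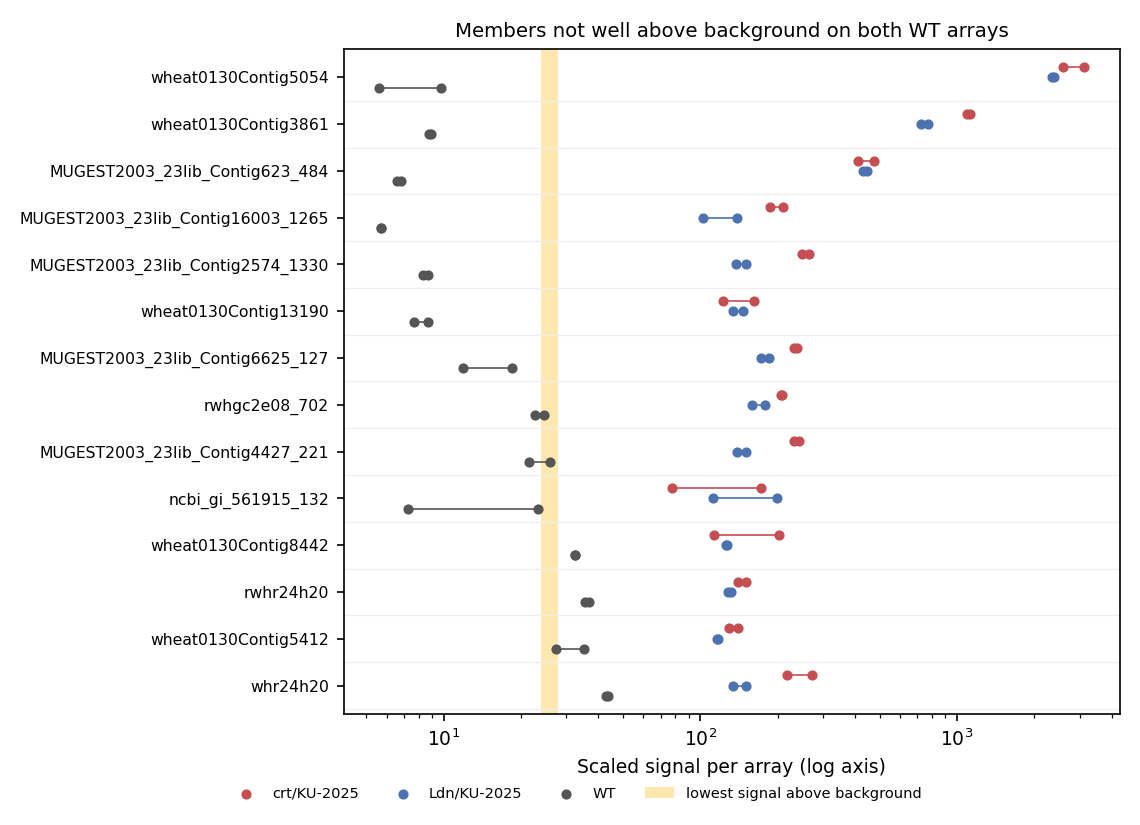
Scaled signal per array (log axis) of the 14 members that were not well above background on either WT array, for crt/KU-2025 (red), Ldn/KU-2025 (blue) and WT (grey); the yellow band spans the lowest signals above background, 23.9 to 27.9, of the 6 arrays. wheat0130Contig5054, at the top, has the widest gap, and the WT arrays of the last 4 rows lie at the right edge of the band or beyond it.

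Names that pair probes give a further view of the members. On this array 1841 pairs of probes have names that differ only by a leading r, and 17 pairs have a member, though nothing in the files used here states how the partners are related. Both partners were members in 1 pair, rwhr24h20, a serine carboxypeptidase-like 18 probe, and whr24h20. rwhr24h20 read 151.3 and 140.5 on the crt/KU-2025 arrays, 131.8 and 127.8 on the Ldn/KU-2025 arrays and 35.4 and 36.8 on the WT arrays. whr24h20 read 271.9 and 217.9 in crt/KU-2025, 133.5 and 150.8 on the Ldn/KU-2025 arrays and 42.8 and 43.6 in WT. Of the other 16 partners, 9 were higher in both dwarf lines than in WT without overlap of arrays, 13 missed the 2-fold step and 9 were under the floor. A partner can fail for its low signal alone, so these counts are not a share of probes that disagree. How many of all probes are higher in both dwarf lines without overlap was not counted. The 9 are therefore not read as a result about the partners.

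Same descriptions were also seen outside the wall and lignin groups. The lipase precursor probes wheat0130Contig5844 and wheat0130Contig6497 both had crt/KU-2025 as the lower dwarf line. wheat0130Contig5844 read 646.3 and 739.9 in crt/KU-2025, against 1191.8 and 1271.3 in Ldn/KU-2025 and 313.8 and 293.3 in WT. wheat0130Contig6497 read 2767.0 and 2962.4 on the crt/KU-2025 arrays, 5358.6 and 5450.6 on the Ldn/KU-2025 arrays and 1604.9 and 1444.1 on the WT arrays, the closest of all members to the lower edge of the window.

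Gene Ontology terms of the probes up in Ldn/KU-2025, as published with the lists, are given as shares with no test. A term for plant-type secondary cell wall biogenesis stood beside 7 of the 67 members with any term, or 10.4%, and beside 1 of the 206 other probes, or 0.485%. For xylan biosynthesis the shares were 8 of 67 and 2 of 206, and for cellulose biosynthesis 7 of 67 and 3 of 206. Defense response to bacterium stood beside 4 of 67 members and 0 of 206 others. Terms of photosynthesis were the reverse, with 0 of 67 members for chloroplast thylakoid membrane and 30 of 206 others. The chlorophyll a-b binding member rwhcs20f08_m_664 is not counted under that term, so the 0 does not mean that no member is described as photosynthetic. Of the 55 photosynthesis probes up in Ldn/KU-2025, however, 33 were below the window on 1 crt/KU-2025 array and above it on the other. Such probes cannot be members, so this share depends on how far the crt/KU-2025 arrays differed from each other. Hydrogen peroxide catabolism stood beside 1 of 67 members and 14 of 206 others.

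The edges of the selection show how close the nearest probes came. At the 2-fold step, wheat0130Contig6456, an aspartic protease, had a lower Ldn/KU-2025 array 2.0004 times the higher WT array and was a member, whereas rwhsh1l20 at 1.9986 times was not. At the floor, MUGEST2003_23lib_Contig16003_1265 was kept with a lower Ldn/KU-2025 signal of 102.1, and wheat0130Contig13680, a phosphatase 2C, was left out with 97.8. At the lower edge of the window, wheat0130Contig6497 was inside with a lower crt/KU-2025 array of 0.516 times the lower Ldn/KU-2025 array, and MUGEST2003_23lib_Contig7562_1, a filament-like plant protein 7, outside with 0.497 times. At the upper edge, wheat0130Contig1827 was inside with 1.996 times the higher Ldn/KU-2025 array, and wheat0130Contig15149, a serine hydroxymethyltransferase, outside with 2.002 times. wheat0130Contig15149 read 102086.3 and 95645.2 in crt/KU-2025, 47593.1 and 50999.8 on the Ldn/KU-2025 arrays and 16247.5 and 15174.8 in WT, and missed by the upper edge alone.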

How the data were processed

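Crown RNA was hybridised to 1-colour Agilent arrays, 6 in all. The values analysed are the intensities the authors deposited: Feature Extraction processed signals that were multiplied by 1 factor per array (1.66 to 2.47), which brings a mean trimmed by 2% at each end to 2500. The labels name Feature Extraction 9.5 and the file headers 10.7.3.1. Control spots (1417 an array) were left out, and 75.1 to 77.6% of probes were well above background on an array. The number of arrays limits precision. The members and gene lists were chosen with earlier results of these data known. Lists were filled by words in published probe descriptions, 1 of whose lists was held only in part. None of the probe names matched the wheat RefSeq gene table, and probe sequences were not used here. Differences are of mean log2 signal, with SE over 2 arrays a line. Named were the members with the largest ratios overall and per list, the brightest, the closest between dwarf lines, those sharing names or descriptions, and those at the edges, plus a few that complete a list. Alternatives used R 4.3.3 with limma 3.58.1 (quantile, normexp with offset 50) and pandas 2.3.3.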

Additional observations from a re-analysis of the deposited data

How the results depend on the processing

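The number of members was 207 with scaling to the 75th percentile, 215 with quantile normalization, 165 with normexp background correction, 213 with a floor of 200, and 244 both with scaling redone from the scanner signals and with dim probes left out; of these, 190, 193 and 146 of the 244 were kept under the first 3. A fold of 3 left 87 members and 36 of the 45 on a gene list, and a window of 0.67 to 1.5 left 119 and 13. Leaving out 1 array gave 261 to 319 members, where dropping a crt/KU-2025 or WT array can only add members. Same-numbered arrays did not deviate together (correlations of -0.07, -0.06 and 0.03 across probes), and applying the selection within same-numbered arrays as a replicate block gave 238 members, 228 of them shared. Medians over the members moved by more than the spread of arrays for crt/KU-2025 minus WT, from 1.67 to 1.46 (75th percentile), 1.48 (quantile) and 1.28 (normexp), and for Ldn/KU-2025 minus WT, from 1.42 to 1.34, 1.36 and 1.12. For crt/KU-2025 minus Ldn/KU-2025 the median of 0.163 became 0.041 and 0.045 with the 75th percentile and quantile settings. Leaving out 1 array gave 1.61 to 1.71, 1.40 to 1.44 and 0.10 to 0.23 for these 3 medians, and the replicate block left them as they were, at 1.67, 1.42 and 0.163. The cause of these moves was not tested. Over all probes, the median of crt/KU-2025 minus WT was 0.10 in the deposited values, -0.11 with the 75th percentile and 0.31 with normexp, so folds in crt/KU-2025 depend on the scaling. For 53 named members, 567 of 742 recomputed differences from WT lay within 1 SD of the value reported (their sign is fixed by the selection). Between the dwarf lines 312 of 371 did, and 343 kept their sign. Both crt/KU-2025 arrays were above, below or overlapping the Ldn/KU-2025 arrays for 103, 88 and 53 members with quantile normalization and 123, 73 and 48 with normexp. Here too the same counts were not made over all probes.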
